A study of Mus musculus with 6 samples.

Results

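The let-7 and miR-98 family is a group of microRNAs (miRNAs) that share the seed, the bases with which a miRNA chooses its targets. Its members were taken by name from all assays of the TaqMan rodent miRNA cards, card A and card B, as every assay for let-7 or for miR-98 other than those for a passenger arm, the less abundant strand of a hairpin that the cards mark with #. The rule gave 9 of 750 miRNA assays, all of them on card A, named mmu-let-7a, mmu-let-7b, mmu-let-7c, mmu-let-7d, mmu-let-7e, mmu-let-7f, mmu-let-7g, mmu-let-7i and mmu-miR-98 (mmu, for mouse, is left out below, while hsa, for human, is kept in the names of assays that carry it). They were measured in blastocysts, the embryos of the implantation stage, to ask whether vitrification alters their miRNAs. All blastocysts came from superovulated and mated Kunming females of 5 weeks and were taken 92 to 94 hours after the hCG injection. The vitrified group (pools V1, V2 and V3) spent 30 seconds in 10% EG (ethylene glycol) and 10% DMSO and 25 seconds in EDFS30 inside an open-pulled straw (OPS), went into liquid nitrogen, and was thawed for 5 minutes in 0.5 M sucrose. Thawed blastocysts were washed in CZB medium, and their survival was scored 18 to 20 hours after warming. The fresh group (pools F1, F2 and F3) was neither frozen nor thawed. The paper gives no hour at which the RNA was taken. The time since collection and the choice of survivors may thus differ between the groups, which was not tested. Each pool is RNA from many blastocysts together, so that a value cannot be assigned to one embryo or to the inner cell mass or trophectoderm, and fewer cells of a type cannot be told apart from less RNA per cell.

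In most tissues let-7 is among the miRNAs that rise as cells differentiate, and it represses growth and stemness genes such as Lin28a, Hmga2, Myc and the Ras genes. In pluripotent cells and early embryos the RNA-binding proteins LIN28A and LIN28B hold its precursors back from processing, by binding a GGAG motif in the loop of the hairpin. Mature let-7 is therefore known as scarce in embryonic stem cells, in which the miR-290 to miR-295 cluster predominates.

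The mature sequences from RefSeq (GRCm38.p6) are shown because the assays must tell apart miRNAs that differ by few bases. They run 5′ to 3′, with the seed (bases 2 to 8) in capitals.
let-7a: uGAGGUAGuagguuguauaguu
let-7b: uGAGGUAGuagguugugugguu
let-7c: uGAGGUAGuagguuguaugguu
let-7d: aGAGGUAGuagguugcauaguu
let-7e: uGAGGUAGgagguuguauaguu
let-7f: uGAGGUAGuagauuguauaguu
let-7g: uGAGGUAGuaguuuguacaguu
let-7i: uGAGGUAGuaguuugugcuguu
miR-98: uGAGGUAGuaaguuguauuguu

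All 9 sequences matched and carried the seed GAGGUAG in 22 bases. Against let-7a, counted from 1 at the 5′ end and with the base of let-7a first, let-7c differed by A19G, let-7e by U9G and let-7f by G12A. let-7b differed by A17G and A19G, let-7d by U1A and U16C, let-7g by G12U and U18C, and miR-98 by G11A and A19U. let-7i was the most distant from let-7a, with G12U, A17G, U18C and A19U. Of the 36 pairs of members, 4 differed by a single base: let-7a with let-7c, let-7e and let-7f, and let-7b with let-7c. Of 1679 mature mouse miRNA names in RefSeq, 11 held this seed. The other two were let-7k and miR-1961, which is shorter (17 bases) and was also measured on the cards.
miR-1961: uGAGGUAGuaguuagaa

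The 9 miRNAs come from 12 hairpin genes on 7 mouse chromosomes. Mirlet7a-1 (chr13:48538179-48538272), Mirlet7f-1 (chr13:48537829-48537917) and Mirlet7d (chr13:48536012-48536114) lie together on the minus strand. Mirlet7c-2 (chr15:85706603-85706697) and Mirlet7b (chr15:85707319-85707403) lie within the non-coding gene Lncppara, and Mirlet7f-2 (chrX:151912346-151912428) and Mir98 (chrX:151913214-151913321) within the gene of the ubiquitin ligase Huwe1. Mirlet7a-2 (chr9:41536716-41536811), Mirlet7c-1 (chr16:77599657-77599750) and Mirlet7e (chr17:17830352-17830444) each have a gene of the miR-99 and miR-100 group within 10 kb, and Mirlet7e also has Mir125a. Mirlet7g (chr9:106178840-106178927) lies within Wdr82, and no gene of the annotation contains Mirlet7i (chr10:122985640-122985724). The letters GGAG, searched on the strand of the hairpin between its arms, were present in 9 of the 12 hairpins and not in those of Mirlet7c-2, Mirlet7b and Mir98. Of all 645 RefSeq mouse hairpins with both arms annotated, 53 (8.2%) held them, but in shorter segments, with a median of 16 bases against 23 to 36 bases in the family. A match is a description of the sequence, and binding was not measured.

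The pools numbered 1 stood apart in both groups. V1 had 218 and F1 140 determined miRNA assays, against 382 to 409 in the other 4 pools, while the reference U6 differed far less (mean threshold cycle, or Ct, on card A 17.82 in V1, the latest pool, and 17.08 in F1 against 16.59 to 17.10). The small nucleolar RNA snoRNA202 on the same card was read at 25.90 in V1 and 27.47 in F1 against 17.79 to 18.22 elsewhere. The 14 assays of the miR-290 to miR-295 cluster, which marks the early mouse embryo, had no determined value in V1 or in F1, and 7, 9, 9 and 7 of them had one in V2, V3, F2 and F3. These markers of a blastocyst were thus detected in 4 of the 6 pools, though below the summed signal of other lists given further on. The fold changes against U6 and the levels relative to the family are given with and without the pools numbered 1, and the nearest profiles and the other references over all 6 pools. Nothing in the labels tells whether pools came from separate days or females, so that the p-values measure the spread between these pools.

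let-7b, let-7c, let-7d, let-7e, let-7g and let-7i were read early in every pool with embryo markers, and let-7a, let-7f and miR-98 later. A Ct is the cycle at which a product becomes visible, so that a lower value means more template and 1 cycle is about a factor of 2. A level is given as −ΔCt, the mean U6 Ct of the card and pool minus the Ct of the assay, on the log2 scale. Of the 54 wells of the family 10 were undetermined (18.5%), against 56.4% of all miRNA wells, and 8 of these 10 lay in the pools numbered 1. Of the 8 members determined in V2, V3, F2 and F3, 6 had a value in V1 and 4 in F1, where 59.8% and 39.0% of the 326 assays determined in these 4 pools had one. Levels of different assays also carry the efficiency of each assay, so that their order is an order of signals.

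let-7c and let-7e gave the earliest signals of the family. let-7e (mmu-let-7e) had Ct values of 27.66, 22.23 and 22.31 in V1, V2 and V3 and of 31.32, 22.79 and 22.35 in F1, F2 and F3. let-7c (mmu-let-7c) was read at 28.28, 22.19 and 23.09 in the vitrified and at 30.67, 23.26 and 22.34 in the fresh pools. In V2 they ranked 27 and 26 among 382 determined assays, and in V3 let-7e ranked 27 among 407. V1 and F1 were later than every other pool for both, and the groups overlapped.

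let-7d, let-7g, let-7b and let-7i followed, within a cycle of each other in the 4 pools with embryo markers. let-7d had Ct values of 29.67, 23.08 and 23.59 in the vitrified and 31.84, 23.81 and 23.59 in the fresh pools. let-7g had 29.40, 23.43 and 24.06 against 31.95, 23.86 and 24.00. Both were determined in all pools and were again latest in F1 and next latest in V1. let-7b, which with let-7c comes from chromosome 15, was read at 31.26, 23.34 and 24.17 in the vitrified pools and at 23.94 and 23.63 in F2 and F3, and was undetermined in F1. let-7i had 29.98, 23.62 and 23.83 in the vitrified pools and 23.96 and 23.63 in F2 and F3, and was likewise undetermined in F1. Among the 4 pools with embryo markers, let-7b and let-7i overlapped between the groups.

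let-7a, let-7f and miR-98 gave later signals. let-7a (mmu-let-7a) was read at 26.12 and 25.66 in V2 and V3 and at 27.38 and 28.39 in F2 and F3. let-7f had 27.48 and 27.26 in V2 and V3 and 27.62 and 29.00 in F2 and F3. Both were undetermined in V1 and in F1, and in the other 4 pools each vitrified pool was earlier than each fresh pool. miR-98 was determined in 1 pool of each group, at 30.31 in V3 and 30.45 in F2, and was compared no further.

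**Figure D1:**
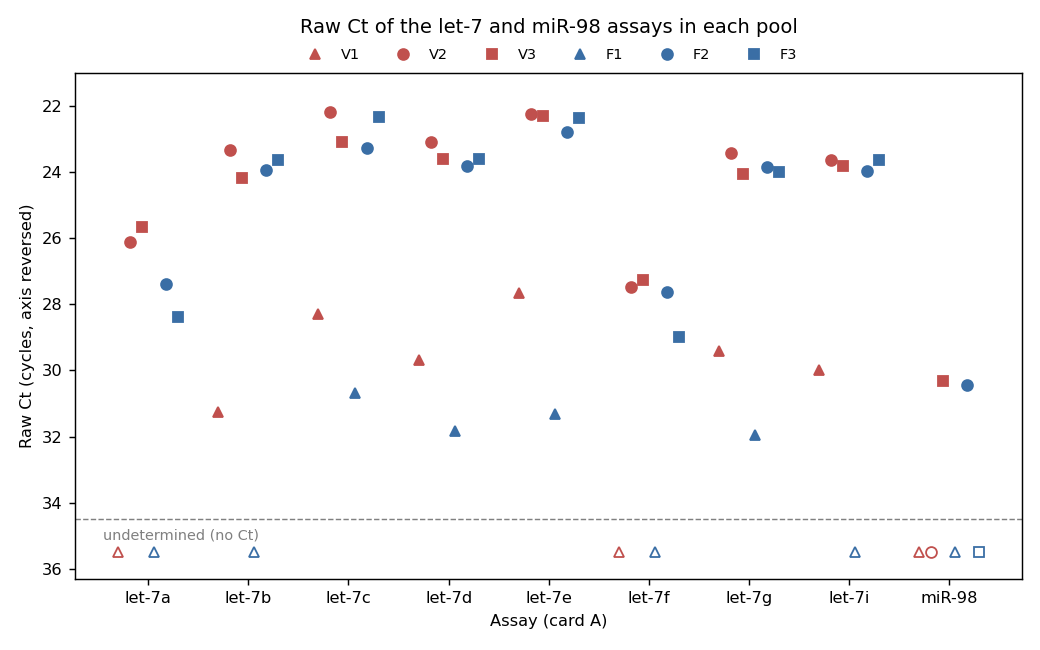
Raw Ct in cycles, on a reversed axis so that more template is higher, for each of the 9 let-7 and miR-98 assays, with 1 point for each of the 3 vitrified (V1 to V3) and 3 fresh (F1 to F3) pools and undetermined wells placed at the bottom. V1 and F1 lie far below the other pools for every member that they determined, and let-7a, let-7f and miR-98 lie below the rest.

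The order of the members was nearly the same in the 4 pools with embryo markers. In −ΔCt, let-7e and let-7c were the highest 2 in each of the 6 pools, with let-7c first in V2 (−5.09 against −5.13), in F1 (−13.59 against −14.24) and, at −5.39 for both after rounding, in F3. let-7d was the next in every pool but V1, in which let-7g preceded it (−11.58 against −11.85). let-7b, let-7g and let-7i exchanged places between pools, and their mean −ΔCt in V2 and V3 was −6.72 ± 0.68, −6.71 ± 0.54 and −6.69 ± 0.25 (SD, n = 2), less apart than their spread. let-7a and let-7f were seventh and eighth in V2, V3, F2 and F3, with let-7a the higher each time. The levels of the 8 members determined in these pools spanned 5.29, 4.95, 4.84 and 6.66 log2 units in V2, V3, F2 and F3.

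Of the 4 pairs that differ by a single base, let-7a with let-7c and let-7a with let-7e gave signals far apart, and the others lay closer. The Ct of let-7a was later than that of let-7c by 3.93 cycles in V2, 2.57 in V3, 4.13 in F2 and 6.04 in F3. It was later than that of let-7e by 3.89, 3.35, 4.60 and 6.04 cycles in the same pools. let-7a and let-7f, whose genes adjoin on chromosome 13, were closer, with let-7a the earlier by 1.36, 1.61, 0.24 and 0.61 cycles. let-7b was later than let-7c by 1.15, 1.09, 0.68 and 1.28 cycles in these pools and by 2.98 cycles in V1. How far each assay also reads its neighbours in sequence was not tested.

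No member passed the test between vitrified and fresh blastocysts. Over all pools, limma with Benjamini-Hochberg adjustment called 0 of 335 assays tested (0.0%) and 0 of the 8 members among them, and 1 of the 335 (0.299%), no member, had an unadjusted p under 0.05. The largest estimate was that of let-7a, at a log2 fold change of 2.26 (SE 1.14, 95% limits −0.83 to 5.34), which rests on V2, V3, F2 and F3 and had an adjusted p of 0.998 by limma. let-7f, on the same pools, had 1.20 (SE 1.17, limits −1.95 to 4.36).

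The 4 members determined in all 6 pools had estimates above 0 with wide limits. They were 1.84 for let-7e (SE 2.67, limits −4.62 to 8.29), 1.32 for let-7c (SE 2.53, limits −4.79 to 7.44), and 1.39 for both let-7d (SE 2.67) and let-7g (SE 2.54). let-7b at −1.95 (SE 2.38) and let-7i at −1.49 (SE 2.01) were below 0, and these are the members with a value in V1 and none in F1. With the pool number as a block their estimates turned to 0.29 (SE 1.04) and 0.33 (SE 0.998), and the block raised the count of assays with an unadjusted p under 0.05 to 4 of 335 (1.19%), 2 of them (0.597%) higher in vitrified blastocysts and none a member. All 8 members were then above 0, as were 60.0% of all assays. The median of the 8 members was 1.36, against −0.05 for all 335 assays, of which 48.1% were above 0.

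Without the pools numbered 1 the differences of all 8 members were above 0, and those of the 6 members with a value in V1 or F1 were smaller in size. Of 326 assays tested over V2, V3, F2 and F3, limma called 0 (0.0%) after adjustment and 16 (4.91%) at an unadjusted p under 0.05, 12 of them (3.68%) higher in vitrified blastocysts and let-7a among these. let-7a kept its log2 fold change of 2.26, a fold of 4.78, now with an SE of 0.60 and limits of 0.73 to 3.79 (adjusted p = 0.711 by limma). Its values are the same in both fits. The smaller SE comes from the variance that limma moderates across assays, here without V1 and F1. Its mean −ΔCt was −8.86 ± 0.23 in the vitrified and −11.11 ± 0.45 in the fresh pools (SD, n = 2). let-7f had 1.20 (SE 0.64, limits −0.43 to 2.84). The other members had 0.63 for let-7d, 0.56 for let-7e, 0.45 for let-7g, 0.42 for let-7c, 0.33 for let-7i and 0.29 for let-7b, with SEs of 0.60 to 0.76. Over the 8 members the median was 0.50 and 8 were above 0, against a median of −0.02 and 49.4% above 0 over all 326 assays. These 326 cover both cards, while the members are all on card A, for which the share was not computed. The mean U6 Ct of card A, common to all members, was 17.10 and 16.97 in V2 and V3 and 16.59 and 16.96 in F2 and F3. In raw Ct the vitrified and fresh means were almost level for let-7b (23.76 and 23.78) and let-7i (23.73 and 23.80).

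**Figure D2:**
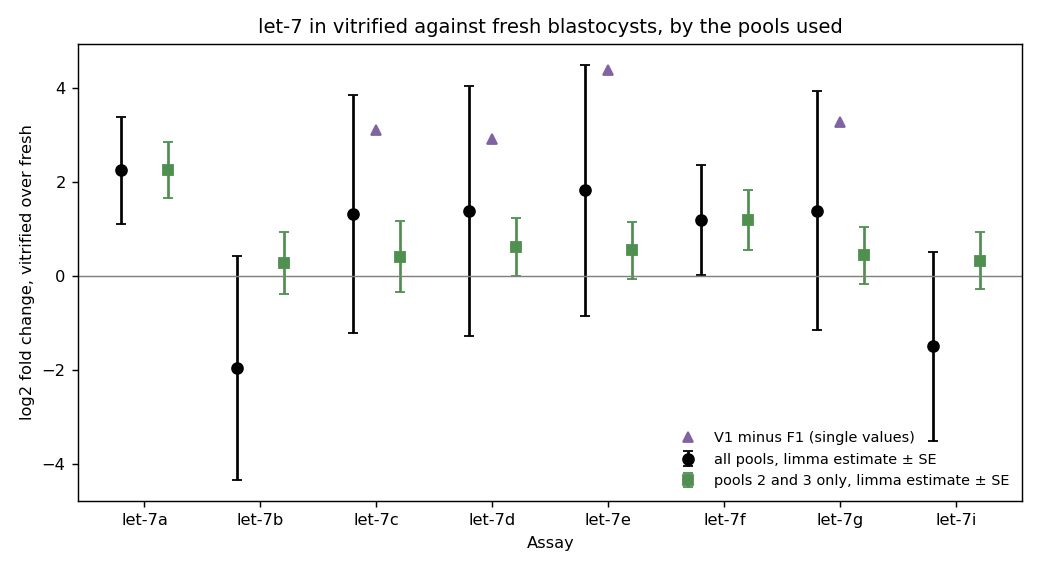
log2 fold change of vitrified over fresh blastocysts for each of the 8 members tested, as the limma estimate over all pools (circles) and over the pools numbered 2 and 3 (squares), with SE bars, and as the single difference of V1 and F1 (triangles) for the 4 members that both determined. The squares lie between 0.29 and 2.26, and the triangles, between 2.91 and 4.39, lie above the other estimates of the same members.

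The groups of pools did not overlap for 4 of the 8 members over V2, V3, F2 and F3: let-7a, let-7d, let-7e and let-7f, each higher in both vitrified pools. Over all 326 assays this was so of 18.1% in that direction and 10.7% in the other, in which no member lay. let-7d (−5.97 and −6.62 in −ΔCt against −7.22 and −6.64) and let-7e (−5.13 and −5.35 against −6.20 and −5.39) were separated by the gap between V3 and F3, which was under 0.1. let-7a, at −9.02 and −8.69 against −10.80 and −11.43, and let-7f, at −10.38 and −10.30 against −11.04 and −12.05, were separated by more. These 2 were also the only members without overlap over all pools (10.1% of the 335 assays were higher without overlap and 5.07% lower). Among the 126 assays determined, like them, in these 4 pools and in neither V1 nor F1, 26.2% were higher without overlap in the vitrified pools and 7.14% lower.

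Between V1 and F1 each member that both determined was higher in V1. The difference in −ΔCt was 4.39 for let-7e, 3.29 for let-7g, 3.12 for let-7c and 2.91 for let-7d, each from 1 value in a group. The same direction was seen in 73.6% of all 129 assays that both pools determined, and in 82.1% of the 84 on card A, where the median difference was 1.97. Against the mean of V2 and V3, the Ct of V1 was later by 5.39 for let-7e to 7.50 for let-7b over 6 members. Against the mean of F2 and F3, that of F1 was later by 7.87 for let-7c to 8.75 for let-7e over 4 members. The medians over the 80 assays of card A determined in all pools were 4.64 cycles in V1 and 6.38 in F1, below each of these values.

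let-7 was low in the pools numbered 1, and so were the markers of each list measured. The summed level of the family, on the log2 scale of −ΔCt, was −8.53, −3.14 and −3.73 in V1, V2 and V3 and −12.27, −4.33 and −3.55 in F1, F2 and F3. The summed level of the embryo cluster was −7.51 in V2, −5.32 in V3, −5.58 in F2 and −7.23 in F3, so that, among these 4 pools, V2 and F3 had the least of it and the highest sums of let-7. V1 and F1, with none of it determined, had the lowest. Blood cell miRNAs (miR-451, miR-144, miR-142, miR-223 and miR-486) had 7 assays. Of these, 5, 6 and 7 were determined in the vitrified and 4, 7 and 7 in the fresh pools. Their sums were −7.18, −3.36 and −3.10 against −7.38, −3.39 and −3.23. The list was not uniform. hsa-miR-144 was undetermined in V1, V2 and F1 and late elsewhere (Ct 34.41 in V3, 33.07 in F2 and 35.94 in F3). miR-142-5p was read at 33.30, 33.00, 32.12 and 34.41 in V2, V3, F2 and F3. In the same 4 pools miR-451 was read at 22.68, 21.91, 22.82 and 23.54. The assays for miR-223 differed in level, with a −ΔCt in V2 of −7.45 for miR-223 and −4.37 for hsa-miR-223. The 3 assays for miR-143 and miR-145, which mark smooth muscle and stroma, had 2, 3 and 3 determined in each group. Their sums were −10.59, −3.48 and −3.79 against −11.95, −4.44 and −1.35. The assays for miR-143 also differed, with a −ΔCt in V2 of −5.86 for miR-143 and −10.81 for hsa-miR-143. miR-145, at a raw Ct of 20.90, 20.97, 21.30 and 18.52 in V2, V3, F2 and F3, was earlier than every member of the family in each of these pools. In each of these 4 pools the sums of let-7, of the blood list and of the smooth muscle and stroma list exceeded that of the embryo cluster. These sums cover lists of 14, 7 and 3 assays and carry the efficiency of each assay, so that they do not give the share of a cell type. Detection of the cluster does not give that share either, and the part of embryo cells in the signal was not tested.

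By their summed levels the markers of liver and nervous tissue were weaker. The liver miRNA miR-122 was determined in V3 (32.87) and F2 (32.85). Of the neural miRNAs miR-124 and miR-9, neither was determined in V1 or F1. The sums were −8.76 in V2, −9.68 in V3, −11.36 in F2 and −11.12 in F3, higher in both vitrified pools. They followed miR-124, at a Ct of 25.87 and 26.72 in V2 and V3 and 27.96 and 28.22 in F2 and F3. miR-9 did not share this direction, being undetermined in V2 and read at 31.02 in V3, 34.81 in F2 and 31.48 in F3. The part of other cell types in the let-7 signal was not tested.

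**Figure D3:**
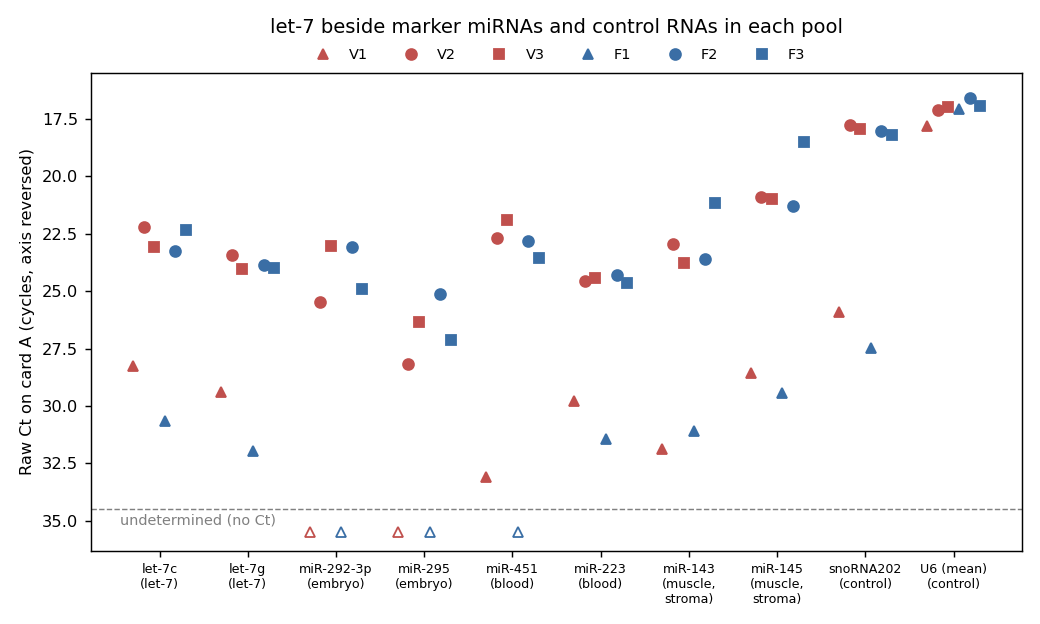
Raw Ct on card A in cycles, on a reversed axis, of let-7 assays beside marker miRNAs and control RNAs, with 1 point for each vitrified (V1 to V3) and fresh (F1 to F3) pool and undetermined wells at the bottom. U6 stays between 16.59 and 17.82 in all pools, while the let-7 assays shown, miR-145 and snoRNA202 are late in V1 and F1, miR-451 is late in V1 and undetermined in F1, and miR-292-3p is undetermined in both.

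Differences between members of the same pool do not depend on U6. The 4 members determined everywhere were therefore compared with their own mean in each pool. let-7e stood above that mean by 1.09, 0.50 and 0.95 in the vitrified pools and by 0.13, 0.64 and 0.72 in the fresh pools, a difference of 0.35 (exact permutation test, 2-sided, p = 0.3, adjusted p = 0.8 over 4 assays). let-7c differed by −0.16 (exact p = 0.6), let-7d by −0.09 (exact p = 1) and let-7g by −0.09 (exact p = 0.6). With 3 pools against 3 this test cannot give a p below 0.1. All 4 overlapped between the groups, so that a change in the proportions of let-7c, let-7d, let-7e and let-7g was not detectable.

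Against the same mean, let-7a differed more than the others. It lay at −3.39 and −2.40 in V2 and V3 and at −3.96 and −5.32 in F2 and F3, a difference of 1.74 without overlap. let-7f lay at −4.75 and −4.00 against −4.20 and −5.93, and overlapped. let-7b and let-7i were lower in both vitrified pools, by differences of −0.23 and −0.18, and let-7d higher, by 0.12. The nearest pools of these members were almost level. They were −0.61 in V2 and −0.56 in F3 for let-7b, and −0.57 in V3 and −0.56 in F3 for let-7i. For let-7d they were −0.34 in V2 and −0.38 in F2. The share of all assays without overlap on this measure was not computed. let-7c (−0.09), let-7e (0.04) and let-7g (−0.07) overlapped. These are descriptions over 2 pools in a group, with no test.

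The passenger arms of let-7 were late or undetermined. Of 8 such assays, all on card B, those for hsa-let-7b#, let-7d#, hsa-let-7f-1# and hsa-let-7i# were undetermined in all pools, and none was determined in V1 or F1, which left 15 of 48 wells with a value. The earliest was let-7g#, at 30.07 and 29.76 in V2 and V3 and 30.91 and 30.96 in F2 and F3. let-7c-1# followed at 32.73 and 32.78 against 35.30 and 33.62. Both were higher in each vitrified pool, as −ΔCt differences of 1.08 and 1.77, with limits of −2.04 to 4.21 and −1.90 to 5.44 and an adjusted p of 0.998 each in the limma fit. Of the 126 assays determined, like them, in V2, V3, F2 and F3 and in neither V1 nor F1, 26.2% were also higher without overlap. let-7a# (31.07 and 31.36 against 34.77 and 30.58) overlapped, and hsa-let-7e# had 32.42 and 33.24 in the vitrified pools and 34.29 in F2 alone. The mouse sequences of these arms in RefSeq show that the seed, in capitals, differs between them and from that of the mature arm.
let-7g-3p: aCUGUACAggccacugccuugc
let-7c-1-3p: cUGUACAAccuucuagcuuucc
let-7e-3p: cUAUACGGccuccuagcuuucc

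The mature arm exceeded its passenger arm by an amount that was steady for let-7g. In −ΔCt the excess was 6.03 and 6.16 in V2 and V3 and 6.70 and 6.76 in F2 and F3. For let-7c it was 9.92 and 10.14 against 11.69 and 11.07, and for let-7e 9.58 and 11.38 against 11.15. For let-7a it ranged from 1.99 in F3 to 7.04 in F2, with 4.33 and 6.15 in V2 and V3. let-7c and let-7g thus had a smaller excess in both vitrified pools, and let-7a and let-7e did not. The share of other arm pairs that separate in this way was not computed. The arms were read on different cards, each against the U6 wells of its own.

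The miRNAs encoded beside let-7 did not share one pattern with it. miR-99a and miR-100, which lie beside Mirlet7c-1 and Mirlet7a-2, were undetermined in all pools although let-7c was among the earliest signals. miR-99b and miR-125a, encoded beside Mirlet7e, were both measured. miR-99b was read at 32.39, 26.08 and 26.89 in the vitrified pools and at 25.84 and 25.43 in F2 and F3. miR-125a-5p had 25.60, 25.93 and 26.63 in the vitrified pools and 28.55, 24.94 and 24.92 in the fresh pools, so that V1 was its earliest vitrified pool while let-7e was latest there. Over V2, V3, F2 and F3, miR-125a-5p was lower in both vitrified pools by a −ΔCt difference of −1.09, where let-7e was higher by 0.56. Over all pools the limma estimate for miR-125a-5p was 0.50 (SE 1.24). The direction for miR-125a-5p therefore depends on the pools numbered 1.

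miR-1961, with the let-7 seed in a shorter miRNA, was near the limit of detection. Its Ct was 34.89 and 34.75 in V2 and V3 and 33.02 and 36.57 in F2 and F3, and it was undetermined in V1 and F1. The groups overlapped, with a limma estimate of 0.04 (SE 1.63).

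The assays whose profile over the 6 pools was most like that of let-7 were miR-744, miR-200b and miR-674#. Each profile was centred on its own mean and set against that of let-7c, let-7d, let-7e and let-7g, and the root mean square difference of −ΔCt was 0.444, 0.471 and 0.490. The median over the 118 other assays determined in all pools was 1.79. Chosen as the nearest over these same pools, all 3 assays were, like the members, lowest in F1 and next lowest in V1. The −ΔCt of miR-200b, for example, was −9.88, −5.37 and −6.30 in the vitrified and −13.41, −5.54 and −5.08 in the fresh pools. The choice favours this order, and its share over the 118 assays was not computed.

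The direction of the family depended on the reference RNA and on F1. With endogenous controls in place of U6 the median over the 8 members was −0.15, with 3 above 0 and 5 below. That of all assays was −0.78, with 24.2% of all above 0. For the members, all on card A, this reference was snoRNA135 and snoRNA202. The controls U87 and Y1, undetermined in F1, were not part of it. Both reference RNAs were themselves late in V1 and F1. snoRNA135 was read at 30.59 in V1 and 35.46 in F1, against 21.7 to 23.11 in the other pools. Without F1 the median of the members was −1.19 against −0.88 for all assays. let-7a was above 0 in both settings, at 1.44 with the endogenous controls and 2.26 without F1. Leaving out F1 could not change let-7a, which has no value there.

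**Figure D4:**
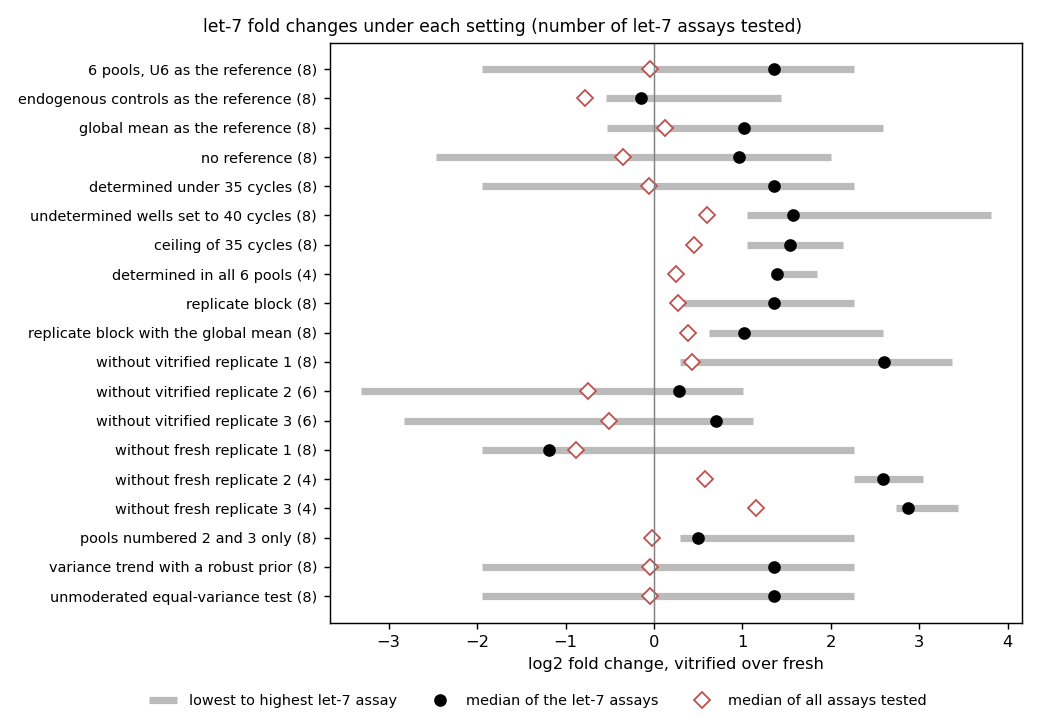
log2 fold change of vitrified over fresh blastocysts over the let-7 members tested under each way of processing, with the number tested in brackets, as a bar from the lowest to the highest member, a filled circle for their median and an open diamond for the median of all assays tested. The endogenous controls used for the members are snoRNA135 and snoRNA202. The median of the members lies below 0 with these controls as the reference (−0.15) and without F1 (−1.19). It lies above the median of all assays in each setting but the one without F1.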

How the data were processed

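Total RNA of each pool (30 ng) was reverse transcribed, pre-amplified and measured with real-time PCR of 40 cycles on both cards. The values deposited by the authors are raw Ct, without normalization, 1 for each well and pool, although the labels speak of triplicates. A table of the authors' own fold changes was not used. All 6 columns of samples were mapped (0 unmapped), and no 2 pools shared an identical Ct.

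As in the methods of the study, undetermined wells and those at 40 cycles or more were left out, and ΔCt was taken against U6 (mean of 4 wells per card and pool). Assays with at least 2 values per group were fitted with lmFit and eBayes of limma 3.58.1, run in R 4.3.3. Its p-values are 2-sided and were adjusted over all assays tested (Benjamini-Hochberg). The code of the fit was run on simulated data with independent noise. These data held no drop shared by the assays of a pool, so the run does not show how the fit performs with V1 and F1. Tables and figures were made with Python 3.11.15, pandas 2.3.3, numpy 2.4.6, scipy 1.17.1 and matplotlib 3.10.9. The number of pools limits the precision, and the depth of a well ends at 40 cycles, a ΔCt of 22.18 to 23.48. Sequences and coordinates are from RefSeq GRCm38.p6, and the deposited values need no build.

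The members and lists were chosen with earlier results of these data known. Named besides the members are the let-7 passenger arms, assays with the let-7 seed or a gene within 10 kb, the controls, the markers and the 3 nearest profiles. Deviations from the group means correlated between pools of one number at 0.805 (V1 with F1), 0.777 (V2 with F2) and 0.666 (V3 with F3) over 122 assays. These correlations rest on the pools numbered 1, since the difference of V2 and V3 correlated with that of F2 and F3 at −0.347 over 326 assays. Whether the numbers, given in the labels, pair the pools is thus not known. The fit and tests reported are unpaired, and the fit with the number as a block is an alternative. The alternatives were other references, other treatments of late wells, the replicate block, each pool left out, and other tests.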

Additional observations from a re-analysis of the deposited data

How the results depend on the processing

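Over the 18 alternatives no assay passed an adjusted p under 0.05 by limma or by the unmoderated equal-variance test, and the adjusted p of the members ranged from 0.684 to 0.999. Of 128 member values 107 had the same direction and 21 turned. let-7a and let-7f turned in none of the 13 alternatives in which they were tested. They had too few values without V2, V3, F2 or F3, as had let-7b and let-7i without F2 or F3, and none of these 4 is determined in all 6 pools. The number of pools and the wells undetermined in V1 and F1 limit every value. The causes of the turns, beyond the pools that an estimate rests on, were not tested.

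With the endogenous controls snoRNA135 and snoRNA202 as the reference the median of the members turned to −0.15. let-7c turned to −0.54, let-7d and let-7g to −0.47, let-7e to −0.03 and let-7i to 0.19. let-7b and let-7i turned to 3.35 and 3.81 with undetermined wells set to 40 cycles, to 1.69 and 2.14 with a ceiling of 35 cycles, to 0.29 and 0.33 with the replicate block, with the pools numbered 2 and 3 only and without V1, and to 0.62 and 0.67 with the replicate block and the global mean. The 0.29 and 0.33 are the same estimates each time. Neither member has a value in F1, so that with the block, too, they rest on V2, V3, F2 and F3 alone. Leaving out each pool in turn gave medians of −1.19 to 2.87. Without F1 let-7c was −1.20, let-7d −1.22, let-7e −0.98 and let-7g −1.18. Over the leave-outs let-7b ranged from −3.31 to 0.29, let-7c from −1.20 to 2.94, let-7d from −1.22 to 3.24, let-7e from −0.98 to 3.44, let-7g from −1.18 to 3.02 and let-7i from −2.49 to 0.33. The level relative to the family turned for let-7d, to 0.12 with the pools numbered 2 and 3 and to 0.10 without V1 (leave-out range −0.20 to 0.10), and for let-7g, to 0.00 after rounding without F2 (−0.24 to 0.00).

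The count of assays with an unadjusted p under 0.05 was 1 with U6 and with the endogenous controls, 3 with the global mean, without a reference and below 35 cycles, 0 with undetermined wells at 40 cycles, with the ceiling of 35 cycles and over assays determined in all 6 pools, 2 with a variance trend and 9 with the unmoderated test. It was 4 with the replicate block, 24 with the replicate block and the global mean, 16 over the pools numbered 2 and 3, and 0 to 10 over the leave-outs, the 10 without V1. let-7a was the member among them over the pools numbered 2 and 3, without V1, with the replicate block and the global mean (adjusted p = 0.684 by limma) and in the unmoderated test. At an adjusted p under 0.05 the replicate block changed no call.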
